A study of Oryza sativa with 6 samples.

Results

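The long, lineage-specific miRNAs of rice leaf are described here. They comprised every miRBase name with a number of 1000 or more and a sequence of 23 to 25 nt, after predicted miRNAs, 15 numbers of well-described or fragment-like families and exact repeat lines had been left out. The rule used only names and lengths, not levels. It gave 81 of the 479 miRNA names in the table, in 52 families, with 81 distinct sequences, all from rice (prefix osa). The study sprayed seedlings of CA21, a rice that tolerates glyphosate, with 2 mg per ml of this herbicide at the third-leaf stage (GLY), against CA21 seedlings left unsprayed (CK), and took leaves once all plants of the sensitive rice P1003 had died. CA21 itself came from irradiation and chemical mutagenesis of the variety Zhejing30 followed by crosses with P1003, so both groups carry that background, and its mutations are not given in the sources used here. Each group had 3 small RNA libraries, and nothing in the labels says that separate plants were used, which means that p-values here cover the spread between these libraries only.

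Plant miRNAs are usually cut from a hairpin by DICER-LIKE 1 and loaded into ARGONAUTE 1, which cleaves matching transcripts. Rice also has a class of long miRNAs that are cut by DICER-LIKE 3 from hairpins, are loaded into ARGONAUTE 4 and its relatives, which favour a 5′ adenine, and can guide DNA methylation instead of cleavage. Many are found only in rice or its close relatives and come from inverted repeats or transposon-derived sequence, and some hairpins give both a short and a long product. In a name, p5 or p3 marks the hairpin arm of a read that has no mature miRNA name of its own, L and R give bases added or missing at the 5′ and 3′ end, and ss gives substitutions.

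The sequences of the 10 members with the highest mean level show the class best. They are written 5′ to 3′ as deposited, with T for U, and bases 2 to 8, the seed, are in capitals.
osa-miR1862d: aCTAGGTTtgtttattttgggacg
osa-miR1876: aTAAGTGGgtttgtgggctggccc
osa-miR2873a: aAGTTTGGacttaaatttggtaac
osa-MIR1873-p5: aCCTCAACatggtatcagagctgg
osa-miR1871: aTGGCTCTgatatcatgttggttt
osa-MIR1863a-p5: aGTCTAATatggtatccgagctta
osa-miR5150-3p_L-1R+1: gAAGCTGCagctgtcagaagctcc
osa-miR2877: tTGCATCCtctgcactttgggcct
osa-MIR1870-p5: aTTAGACCtagtgggcatttatac
osa-miR1862a: aCGAGGTTggtttattttgggacg
Of these 10, the sequences of osa-miR1862d and osa-miR1862a belong to 1 family and differ in the seed. Across all 81 members no seed was shared, since 81 distinct strings stood at bases 2 to 8. Some members were nearly identical all the same. The sequence of osa-miR1862a_L+1R-1 is that of osa-miR1862a moved by 1 base, and osa-miR1862a_1ss6GA differs from osa-miR1862a in 1 base. The sequences of osa-miR1863b.2_L+1 and osa-miR1863c also differ in 1 base.

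The members were nearly all 24 nt long, namely 72 of 81, with 7 of 23 nt and 2 of 25 nt. An A stood at the 5′ end of 47 (58.0%), U of 20, G of 13 and C of 1. By comparison, the 75 lineage-specific names of 20 to 22 nt began with A in 30.7% and with U in 50.7%, and all 479 names began with A in 39.2%. The median GC content was 41.7% in the members, against 50% over all names. Named mature miRNAs made up 43 of the members and p5 or p3 sequences 38, and 29 names carried a suffix for changed ends or substitutions. The families were small: 32 had 1 member, 17 had 2 and only miR1862, miR1863 and miR1883 had 3 or more.

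Part of 3 families shared a stretch of sequence. The 16 bases ACATGGTATCAGAGCT stood, on one strand or the other, in 4 members of miR1863 and miR1873, and 2 more members, 1 of them osa-miR1871, matched it with 2 differences. These 6 members were also all the names within 2 differences among the 479 (1.25%), on either strand. That holds for the full 16 bases, a string taken from the members themselves. A shorter string within it, TGGTATCAGAG, stood in 6 of the 479 names on either strand, 4 of them members and 1 a predicted miRNA. The members within 2 differences are printed again with the matching bases in capitals and everything else, differences included, in lower case.
osa-MIR1863b-p5: atagttACATGGTATCAGAGCTga
osa-MIR1873-p3: tctAGCTCTGATACCATGTtgagt
osa-MIR1873-p5: acctcaACATGGTATCAGAGCTgg
osa-miR1863a: AGCTCTGATACCATGTtagattag
osa-MIR1863a-p5: agtctaAtATGGTATCcGAGCTta
osa-miR1871: atgGCTCTGATAtCATGTtggttt
The sequences of osa-MIR1863b-p5, osa-MIR1873-p5 and osa-MIR1863a-p5 hold one strand, and those of osa-MIR1873-p3, osa-miR1863a and osa-miR1871 the other. As background, a stretch of this kind, complementary to the 3′ end of the initiator methionine tRNA, forms the primer binding site of many copia-type retrotransposons of plants, among them Tos17 of rice. The match is of letters only, and genome positions are not used here. In a second case, osa-MIR5788-p3_1ss20AG and osa-MIR3981-p3_2ss17TC24AG shared 20 bases, AGATTCGTAGTACTAGGATG, on the same strand.

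The members were abundant in 1 library. Summed over the 81 members, the normalized value was 2648, 32620 and 1787 in GLY 1, GLY 2 and GLY 3, against 7007, 6162 and 3811 in CK 1, CK 2 and CK 3. GLY 2 thus lay above every CK library, by 4.66 times the highest of them, while GLY 1 and GLY 3 lay under every CK library. The members made up 1.71%, 18.4% and 1.06% of the value of all miRNAs in GLY 1, GLY 2 and GLY 3, against 5.15%, 4.16% and 2.31% in CK 1, CK 2 and CK 3. Relative to the mean of the CK libraries, the sums in GLY 1, GLY 2 and GLY 3 were 0.468, 5.76 and 0.316 as deposited. Other scalings of the libraries gave 0.440 to 0.778 for GLY 1, 4.75 to 5.95 for GLY 2 and 0.274 to 0.377 for GLY 3, so the order was the same under each scaling tried.

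More members were detected in GLY 2 than in any other library, and fewer in GLY 1 and GLY 3 than in any CK library. Of the 81, 37, 73 and 20 lay above 0 in GLY 1, GLY 2 and GLY 3, against 51, 56 and 50 in CK 1, CK 2 and CK 3. Over all 479 names the counts were 323, 362 and 258 in the GLY libraries, against 337, 326 and 370 in the CK libraries. GLY 1 and GLY 3 thus had the fewest names over the whole table too, whereas GLY 2 lay under CK 3 there. GLY 2 held the highest value of 72 members, and 17 members lay above 0 in GLY 2 alone, at 8.96 to 64.2. In GLY 3, 61 members were listed at 0, among them 14 with a CK mean above 20. Estimated miRNA reads were ordered otherwise than these counts: GLY 3 was the shallowest library at 97931, but GLY 2 had 118692, against 154457 to 304775 in the CK libraries and 176541 in GLY 1. By the valid reads that the paper lists, every GLY library was shallower than every CK library. Among the GLY libraries GLY 2 had the most valid reads and GLY 3 the fewest. The part of depth in these counts was not tested. The table seems to leave out low counts, since only 13 to 20 values per library lay under 5 estimated reads, so some zeros may stand for a small number of reads.

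GLY 2 stood apart across the table by sequence length, and the members, like the other 24-nt names, were highest in GLY 2. The 24-nt names that are not members summed to 9547, 30442 and 10575 in GLY 1, GLY 2 and GLY 3, against 13854, 14766 and 7942 in CK 1, CK 2 and CK 3. They too were highest in GLY 2, but in GLY 1 and GLY 3 they lay above CK 3, where the members lay under every CK library. Low sums in GLY 1 and GLY 3 were no trait of the members alone. Names of 23 to 25 nt with a number under 1000 had 1015 and 1091 there, against 2674 to 3329 in the CK libraries. Predicted miRNAs of these lengths had 483 and 286, against 640 to 1194 in the CK libraries. At 25 nt GLY 2 stood out little, with sums of 8551, 9553 and 7158 in the GLY libraries, against 8278, 8540 and 3875 in the CK libraries. At 21 nt the sums were 96421, 69278 and 111887 in the GLY libraries, against 87558, 95928 and 129137 in the CK libraries. At 20 nt the sums were 5032, 1295 and 6755 in the GLY libraries, against 2023, 2391 and 3266 in the CK libraries. The shortest sequences, of 18 nt, showed the widest gap, with 889.9, 32.1 and 1769 in the GLY libraries, against 184, 203 and 85.7 in the CK libraries. GLY 2 was thus the lowest library at 18, 20 and 21 nt, and also at 19 nt, with 774. It was the highest at 24 and 25 nt, and also at 22 and 23 nt, with 32410 and 1168. GLY 1 and GLY 3 lay above every CK library at 18 and 20 nt. They did so at 22 nt too, with 30368 and 25734, against 14386 to 18014 in the CK libraries.

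**Figure D1:**
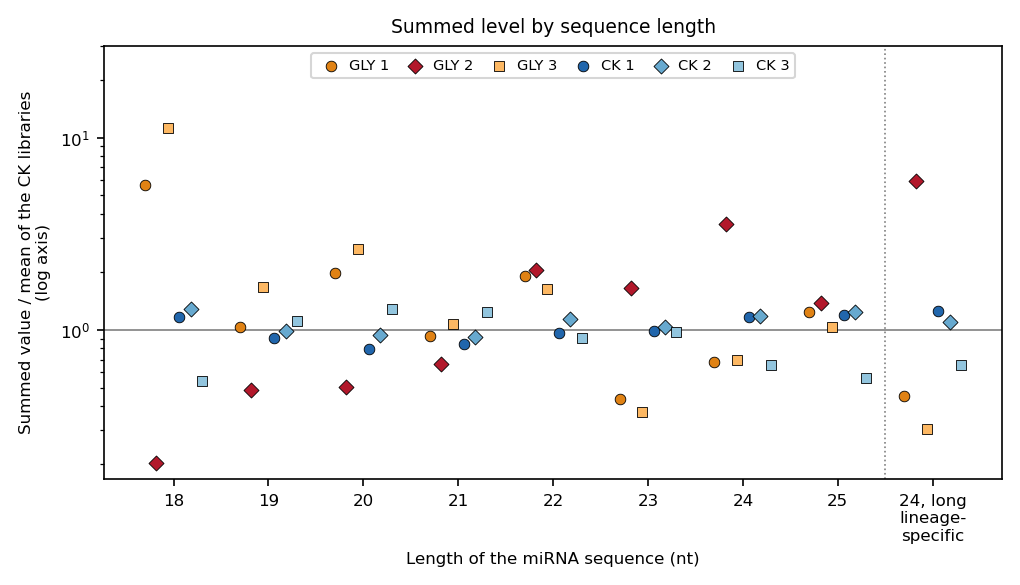
Summed normalized value of all miRNAs of each length (18 to 25 nt) and of the 72 long lineage-specific miRNAs of 24 nt (right of the dotted line), divided by the mean of the 3 CK libraries, on a log axis; each point is 1 library. At 24 nt GLY 2 lies at 3.56 for all names and 5.94 for the members, while GLY 1 and GLY 3 lie at 0.68 and 0.69 for all names and at 0.45 and 0.30 for the members.

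Markers of other material were compared for the same libraries. The 7 fragment-like entries from rRNA or tRNA, which bear on RNA quality, summed to 26266, 28048 and 25103 in GLY 1, GLY 2 and GLY 3, against 22769, 26913 and 10836 in CK 1, CK 2 and CK 3, with 5 to 6 of 7 above 0 in each GLY library and 6 to 7 of 7 in each CK library. The 6 names of miR2118 and miR2275, which mark reproductive tissue in rice, summed to 343, 46.3 and 585 in the GLY libraries, against 127, 139.8 and 99.5 in the CK libraries, with 1, 1 and 3 of 6 above 0 in GLY 1, GLY 2 and GLY 3 and 4 of 6 in each CK library. The first sum did not set GLY 2 apart, and the second was lowest in GLY 2. The part of length composition, depth or RNA quality in the members' levels was not tested.

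The main comparison asked which members differed between sprayed and unsprayed leaves. Of the 81 members, 37 reached a value of 10 in at least 3 libraries and were tested, with limma on log2(value + 1) over all 251 miRNAs that passed. None of the 37 was called at a Benjamini-Hochberg adjusted p under 0.05, and 0 had an unadjusted p under 0.05, also in limma without its trend and robust options. Over all tested miRNAs 28 of 251 were called (11.2%), and 68 had an unadjusted p under 0.05. The smallest adjusted p of a member was 0.302, that of osa-miR2880. In none of the 37 did GLY and CK values separate, whereas 21.9% of all tested miRNAs were lower and 13.9% higher in GLY without overlap. The spread within GLY came largely from GLY 2, and p-values that miss the threshold do not show that GLY and CK levels were alike.

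The fitted differences leaned to lower levels in GLY although the sums did not. The fitted log2 difference was below 0 in 28 of the 37 members, with a median of -0.75, against -0.46 over all 251 miRNAs. Both GLY 1 and GLY 3 lay under the lowest CK library in 31 of the 37 (83.8%), compared with 48.2% of all tested miRNAs, and in 30 of these 31 GLY 2 lay above the highest CK library. With GLY 2 left out, 20 of the 37 fell in GLY and 0 rose (limma, adjusted p under 0.05), with a median difference of -2.24. That share of 54.1% compares with 34.3% of all tested miRNAs called lower in the same fit, where the median was -0.63. It is no trait of the members alone: 14 of 17 tested long miRNAs with a number under 1000 (82.4%), 9 of 17 long predicted miRNAs (52.9%) and 62.1% of all tested 24-nt miRNAs, members included, were called lower in that fit. The filter favoured this direction, since it was set on all 6 libraries, and 9 of the 20 were under 10 in both GLY 1 and GLY 3 and passed through CK and the omitted GLY 2. In a further fit, chosen after the data were seen, with a value of 10 needed in at least 2 of the 5 libraries kept, 16 of 37 members were called lower and 0 higher (43.2%), against 27.5% of 269 miRNAs. That filter could still be passed through CK alone, and a member at 0 in both GLY 1 and GLY 3 could then only be called lower. In the fit that called 20 members, the called differences ran from -4.69 to -1.22. The widest of them were in members listed at 0 in both GLY 1 and GLY 3, whose fitted value depends on the added 1 and is no measure of fold. Without GLY 3 the median was 0.41 and without GLY 1 it was -0.19, with 0 members called in either fit, so the direction of the median rested on which GLY library was kept.

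**Figure D2:**
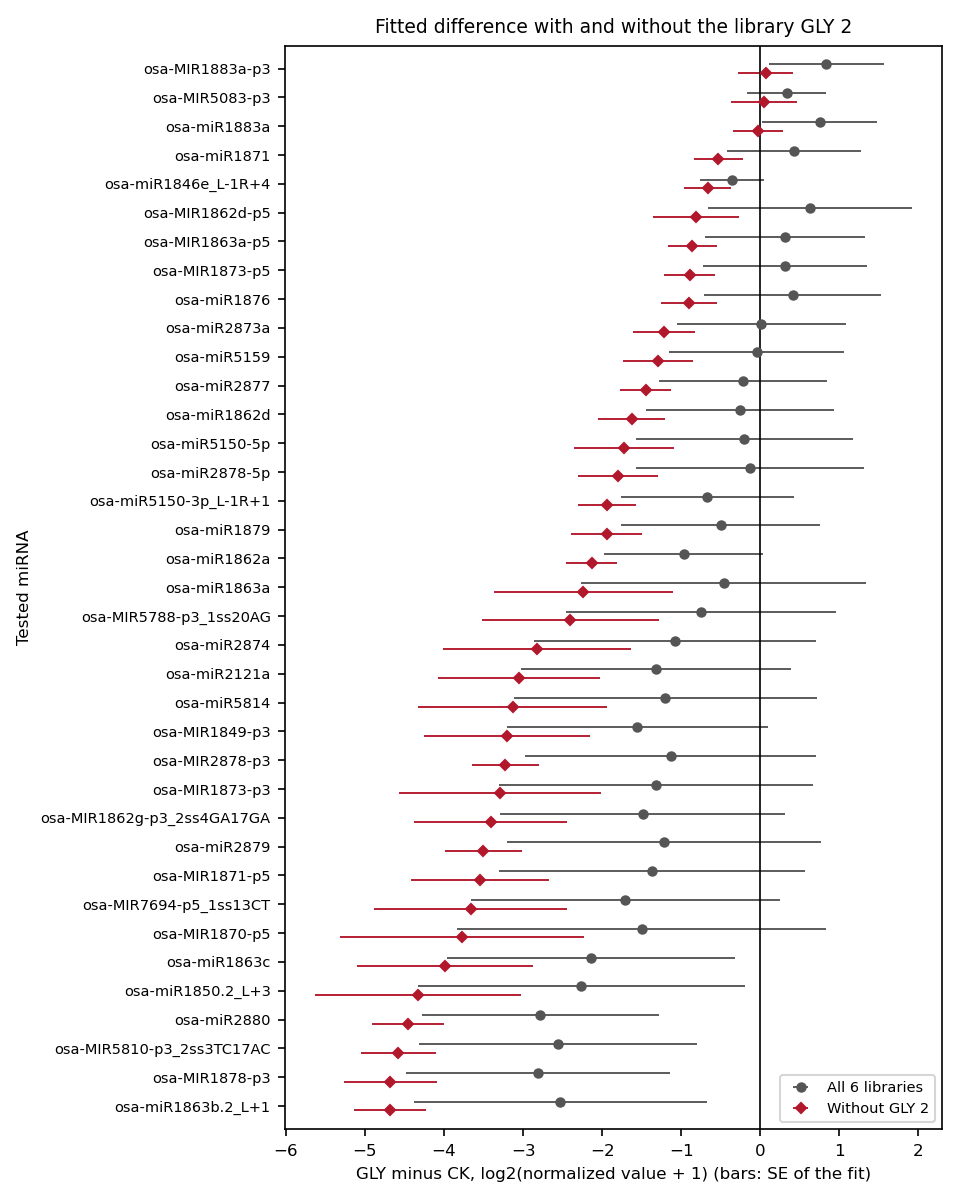
Fitted difference of GLY minus CK in log2(normalized value + 1) for the 37 tested long miRNAs, with all 6 libraries (grey) and without GLY 2 (red); bars are the SE of the fit. With all libraries the bars are wide and 28 of 37 lie below 0, and without GLY 2 35 of 37 lie below 0.

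The largest family by level was miR1862. Its leading member, osa-miR1862d, had 575, 8282 and 392 in GLY 1, GLY 2 and GLY 3, against 2123, 1710 and 872 in CK 1, CK 2 and CK 3. GLY 2 lay well above the CK libraries and the other GLY libraries under them, so the groups overlapped. The mean was 3083 ± 4503 in GLY and 1568 ± 637 in CK (SD, n = 3 each), while the fitted log2 difference was -0.25 ± 1.19 (SE, limma adjusted p = 0.907), because a mean of logs gives less weight to 1 high library. A second member, osa-miR1862a, had 44.8, 451 and 34.4 in the GLY libraries, against 200.0, 209 and 129 in the CK libraries. Summed over its 6 members the family stood at 642, 9344 and 452 in the GLY libraries, against 2439, 1992 and 1041 in the CK libraries, the same order as its leading member.

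The next members by level were osa-miR1876 and osa-miR2873a, for which no role is stated here. The values of osa-miR1876 were 681, 7849 and 385 in GLY 1, GLY 2 and GLY 3, against 917, 1278 and 748 in CK 1, CK 2 and CK 3. Those of osa-miR2873a were 339, 3714 and 243 in the GLY libraries, against 1066, 583 and 478 in the CK libraries. In both, GLY 2 was the highest library and GLY 1 and GLY 3 were the lowest, and the fitted log2 differences were 0.41 ± 1.12 and 0.01 ± 1.07 (SE), both far inside their error.

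The members that share the primer-binding-site-like stretch followed. In the family miR1873, known in rice for a part in immunity to the blast fungus, osa-MIR1873-p5 had 112, 1581 and 143 in GLY 1, GLY 2 and GLY 3, against 315, 234 and 177 in CK 1, CK 2 and CK 3. Its opposite arm, osa-MIR1873-p3, had 23.7, 299 and 0 in the GLY libraries, against 53.8, 64.0 and 31.4 in the CK libraries. Both arms were highest in GLY 2 and lay under every CK library in GLY 1 and GLY 3. The value of osa-miR1871 was 109.9, 809.7 and 108 in the GLY libraries, against 196, 176 and 114 in the CK libraries. That of osa-MIR1863a-p5 was 95.0, 887 and 61.9 in the GLY libraries, against 167, 144 and 114 in the CK libraries. Its partner osa-miR1863a had 10.6, 134 and 0 in the GLY libraries, against 22.03, 22.8 and 6.49 in the CK libraries, so here GLY 1 lay between the CK libraries. The 6 members of miR1863 summed to 119.6, 1325 and 61.9 in the GLY libraries, against 314, 245 and 189.7 in the CK libraries, with GLY 2 again on top.

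The remaining members of the 10 highest were again highest in GLY 2. The ranking by the mean over all libraries favoured this, since GLY 2 weighs most in that mean. The member osa-miR1846e_L-1R+4, highest in CK 3, had a CK mean of 162 and was not among the 10. For osa-MIR1870-p5, which was, the CK mean was 106. The value of osa-miR5150-3p_L-1R+1 was 52.8, 604 and 34.4 in GLY 1, GLY 2 and GLY 3, against 189, 208 and 116 in CK 1, CK 2 and CK 3. That of osa-miR2877 was 58.9, 651 and 41.3 in the GLY libraries, against 179.7, 129.8 and 109 in the CK libraries. That of osa-MIR1870-p5 was 44.0, 757 and 0 in the GLY libraries, against 137, 142 and 37.8 in the CK libraries. GLY 3 was the lowest library for all 3, and GLY 1 lay under every CK library except for osa-MIR1870-p5, where it lay above CK 3. The 10 highest members held 79.7%, 78.4% and 80.8% of the members' value in GLY 1, GLY 2 and GLY 3, against 78.4%, 78.1% and 76.0% in CK 1, CK 2 and CK 3, so the share of the leading members was nearly the same in every library although the total differed.

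**Figure D3:**
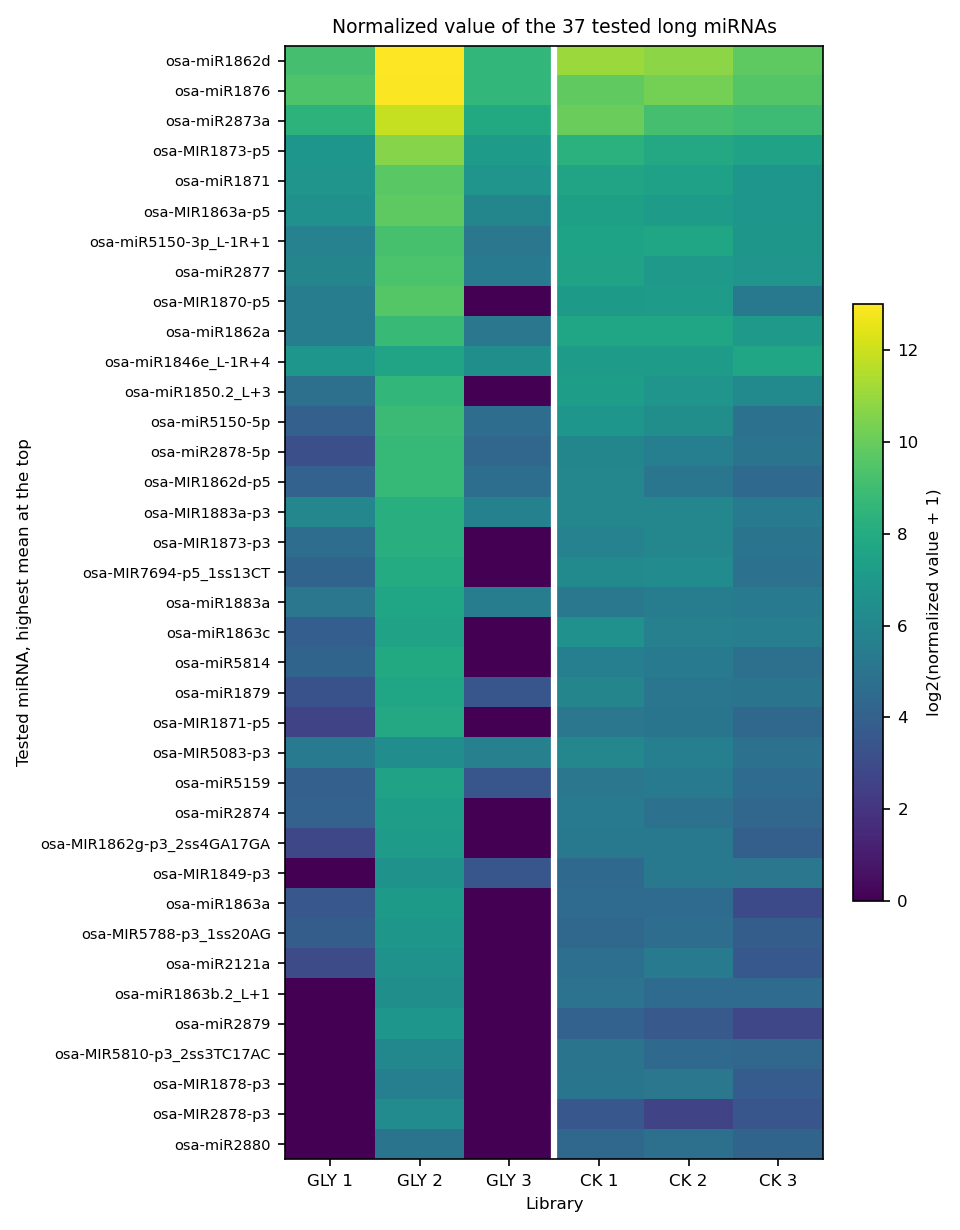
Normalized value of the 37 tested long miRNAs on a log2(value + 1) scale, 1 row per miRNA with the highest mean at the top and 1 column per library, GLY left of the white line and CK right of it. GLY 2 is the brightest column for 36 of the 37, and 18 of the 37 are at 0 (darkest) in GLY 3.

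The ranks of the members were compared between libraries. Across the 37 tested members, Spearman's rho of the values was 0.89 to 0.93 between CK libraries, 0.79 to 0.88 between GLY 2 and the CK libraries, 0.85 to 0.88 between GLY 1 and the CK libraries and 0.72 to 0.79 between GLY 3 and the CK libraries. Within GLY, rho was 0.81 for GLY 1 with GLY 2 and 0.78 for GLY 1 with GLY 3. It was lowest of all pairs, at 0.66, for GLY 2 with GLY 3. Of the 37, 18 were tied at 0 in GLY 3 and 7 in GLY 1, which limits the ranks in these libraries. These are correlations across miRNAs of the same hairpins and libraries, given as a description. Relative to the CK mean the 37 members ranged in GLY 1 from 0 to 1.14 (median 0.367), in GLY 2 from 1.18 to 10.7 (median 5.16) and in GLY 3 from 0 to 1.08 (median 0.192). All 37 were thus above their CK mean in GLY 2, 36 of 37 were below it in GLY 1 and 35 of 37 in GLY 3.

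The exceptions among the tested members included both of those with 23 nt, which differed little between GLY 2 and the other GLY libraries. One, osa-miR1846e_L-1R+4, had 113, 191 and 89.5 in GLY 1, GLY 2 and GLY 3, against 143, 139 and 205 in CK 1, CK 2 and CK 3, and was the only tested member whose highest library was not GLY 2. The other, osa-MIR5083-p3, had 41.3, 83.7 and 49.9 in the GLY libraries, against 63.4, 47.3 and 28.1 in the CK libraries. Their ratios of GLY 2 to the mean of GLY 1 and GLY 3 were 1.89 and 1.83, the 2 lowest among the tested members, and the next were those of the miR1883a hairpin at 5.01 and 5.23. Their sequences, with bases 2 to 8 in capitals, follow.
osa-miR1846e_L-1R+4: aACGAGGAggccgggaccaccgg
osa-MIR5083-p3: aACCAATGgatccttctgagcct
The 7 members of 23 nt summed to 186, 285 and 139 in the GLY libraries, against 222, 215 and 233 in the CK libraries. The 72 members of 24 nt summed to 2461, 32317 and 1647 in the GLY libraries, against 6785, 5948 and 3578 in the CK libraries. By first base, the median ratio to the CK mean in GLY 1 and GLY 2 was 0.436 and 5.23 for members beginning with A, 0.261 and 5.12 for those with G and 0.221 and 4.87 for those with U. In GLY 2 it was 5.10 for named mature miRNAs and 5.99 for p5 or p3 sequences, and 3.53 for names with a variant suffix and 5.28 for those without. No test of these differences was made.

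The hairpin of miR1883a was the other exception. Its mature miRNA, osa-miR1883a, had 34.7, 203 and 43.0 in GLY 1, GLY 2 and GLY 3, against 35.7, 45.2 and 38.4 in CK 1, CK 2 and CK 3. Its opposite arm, osa-MIR1883a-p3, had 64.2, 289.8 and 51.6 in the GLY libraries, against 65.2, 64.0 and 39.5 in the CK libraries. GLY 2 was again the highest library, but GLY 1 and GLY 3 lay near the CK libraries, and with GLY 2 left out the fitted log2 differences were -0.03 ± 0.32 and 0.07 ± 0.35 (SE). The pair is printed to show the near-complementary arms, with bases 2 to 8 in capitals.
osa-miR1883a: aCCTGTGAcgggccgagaatggaa
osa-MIR1883a-p3: gTTCCATTctcgatccgtcacagg

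At the other end, some members were seen in GLY 2 and CK but at 0 in both GLY 1 and GLY 3. This held for osa-miR1863b.2_L+1, with 88.1 in GLY 2, against 29.96, 22.8 and 22.2 in the CK libraries. It also held for osa-miR2879, with 115 in GLY 2, against 15.9, 11.4 and 5.95 in the CK libraries. For osa-MIR5810-p3_2ss3TC17AC the values were 65.7 in GLY 2, against 30.8, 21.04 and 18.4 in the CK libraries. The same pattern was listed for osa-MIR1878-p3, osa-MIR2878-p3 and osa-miR2876-3p_L-1R+4, at 47.8, 76.2 and 109.1 in GLY 2, and over all 81 members 36 lay above 0 in GLY 2 and at 0 in GLY 1 and GLY 3. No fold is given against a group of values at 0.

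Both arms of a hairpin were among the members for 20 hairpins, and 15 of these pairs could form a duplex of 18 to 23 base pairs. Products of a Dicer-like enzyme carry 2-base overhangs at their 3′ ends; 1 pair, that of miR1863c, had them on both strands and 3 had one on at least 1 strand. In 8 of the 15 both arms had a mean of 10 or more, and in all 8 the same arm was higher in every library. The 3′ arm led in miR1862d, miR1883a, miR2873a, miR2877 and miR5150, and the 5′ arm in miR1863a, miR1873 and miR2878. In all 8 hairpins the less abundant arm was also highest in GLY 2, and those of miR1862d and miR5150 are given here. The first of these arms, osa-MIR1862d-p5, had 15.8, 424 and 24.9 in GLY 1, GLY 2 and GLY 3, against 64.8, 33.3 and 21.1 in CK 1, CK 2 and CK 3. The other, osa-miR5150-5p, had 14.9, 475 and 24.1 in the GLY libraries, against 112.8, 85.9 and 28.1 in the CK libraries. In the hairpin of miR2878, the leading osa-miR2878-5p had 7.91, 427 and 18.9 in the GLY libraries, against 61.7, 48.2 and 31.4 in the CK libraries. It too was highest in GLY 2. The share of the 5′ arm in miR1862d was 2.68%, 4.86% and 5.98% in GLY 1, GLY 2 and GLY 3, against 2.96%, 1.91% and 2.36% in CK 1, CK 2 and CK 3. In miR5150 it was 22.1%, 44.04% and 41.2% in the GLY libraries, against 37.3%, 29.3% and 19.5% in the CK libraries, so the groups overlapped.

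The arm shares of miR2873a and miR2877 set GLY 2 apart from every other library. In miR2873a the 5′ arm sequence, osa-MIR2873a-p5, had 12.3, 851.5 and 0 in GLY 1, GLY 2 and GLY 3, against 0, 5.26 and 7.03 in CK 1, CK 2 and CK 3, which was too low in the other libraries for it to be tested. Its share of the hairpin was 3.51%, 18.7% and 0% in the GLY libraries, against 0%, 0.894% and 1.45% in the CK libraries. GLY 2 lay at 138 times the mean of GLY 1 and GLY 3 for this arm and at 12.8 times for osa-miR2873a, the 3′ arm. In miR2877 the 5′ arm, osa-MIR2877-p5, was at 64.2 in GLY 2 and at 0 in every other library. Both shifts rest on 1 library. The miR2873a pair is printed with bases 2 to 8 in capitals.
osa-MIR2873a-p5: tACCAAATttcaagttcaaactca
osa-miR2873a: aAGTTTGGacttaaatttggtaac

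**Figure D4:**
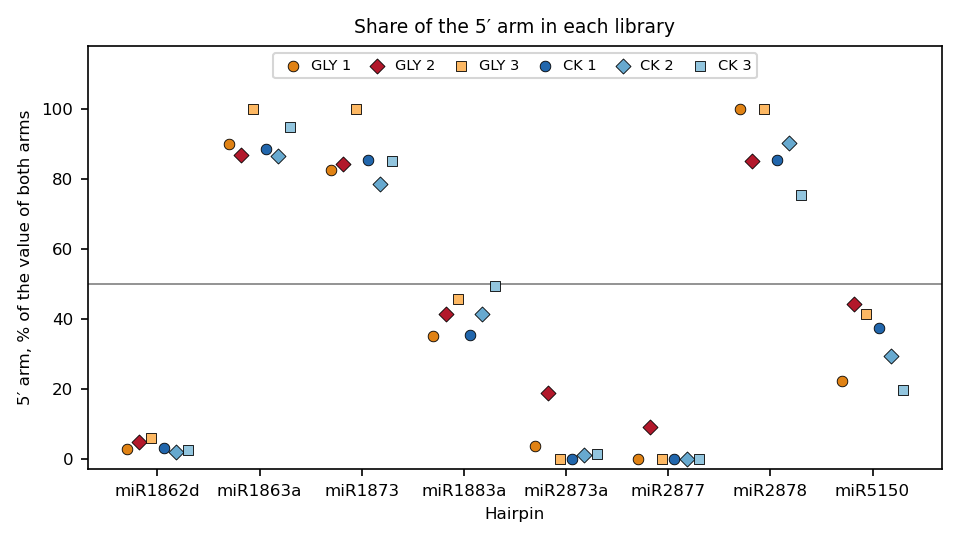
Share of the 5′ arm in the value of both arms, in percent, for 8 hairpins. Shown are those whose arms could form a duplex and both had a mean of 10 or more. Each point is 1 library. The leading arm was the same in every library, and GLY 2 stands apart in miR2873a at 18.7% and in miR2877 at 8.98%.

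By family, the members gave 52 sums, of which 26 were tested. None was called (limma, smallest adjusted p = 0.476, and 0 at an unadjusted p under 0.05), against 3.85% of 130 family sums over the whole table. The highest library was GLY 2 for 45 of the 52. Without GLY 2, 16 of the 26 were called lower and 0 higher, against 38.5% of all family sums called lower, and these included miR1862, miR1863, miR1873, miR2873, miR2877, miR2878 and miR5150. The filter, set on all libraries, favoured this direction for the family sums as well. The 3 members of miR1883 summed to 98.9, 493 and 94.6 in GLY 1, GLY 2 and GLY 3, against 100.9, 109.2 and 81.6 in CK 1, CK 2 and CK 3, and the fitted log2 difference without GLY 2 was 0.00 ± 0.27 (SE).

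Other sets of the table gave the range to compare with. GLY 2 was the highest library for 36 of the 37 tested members (97.3%), for 12 of 17 tested miRNAs with a number under 1000 and the same lengths (70.6%) and for 15 of 17 tested predicted miRNAs of these lengths (88.2%). It was the highest for 4 of 34 tested lineage-specific miRNAs of 20 to 22 nt (11.8%), for 12 of 110 with a number under 1000 and these shorter lengths (10.9%) and for 88 of 251 overall (35.1%). The median ratio of GLY 2 to the CK mean was 5.16 in the members, 3.46 in the long miRNAs with a number under 1000, 3.86 in the long predicted miRNAs and 0.789 in the lineage-specific miRNAs of 20 to 22 nt. The high values in GLY 2 were therefore shared by the other long sets and not by the shorter lineage-specific set. These are counts and medians over miRNAs of the same libraries, and no test of the difference between sets was made.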

How the data were processed

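Leaf small RNA of CA21 was measured in 3 GLY and 3 CK libraries. The authors prepared the libraries with the TruSeq small RNA kit and read them from 1 end. Adaptors and sequences shorter than 18 nt were removed, other classes of RNA and repeats were matched with ACGT101-miR, and miRNAs were identified by mapping to miRBase precursors. The deposited values are signal, headed normalized counts. The version of that program, the tool for the mapping to precursors and the scaling of the libraries are not given in the sources used. Of 582 lines, 103 were exact repeats and were removed, which left 479 names. Between 78.5% and 83.5% of values under 60 lay within 0.01 of a whole multiple of 1 step per library (0.540 to 1.72), and the others mostly at simple fractions of it, so the values were not treated as counts; dividing by the step gave the estimated reads, and no counting interval is given. Near-identical members of a family could share reads.

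The planned count model needed raw counts, so its stated replacement was used: limma 3.58.1 in R 4.3.3 on log2(value + 1), with trend and robust options, for miRNAs at 10 or more in at least 3 libraries, adjusted by Benjamini-Hochberg over all tested and called under 0.05. A difference on this scale understates changes of low values. Family sums were fitted likewise. The fit was tested on simulated data drawn with the CK spread in both groups, which does not cover a group with a library that stands apart. Alternatives were 3 other scalings, an added value of 5, no filter, a filter at 20, other limma options, each library left out (and, for GLY 2, with the filter set without it), the replicate number as a block, and identical sequences counted once. Arm pairs were folded with RNAduplex of ViennaRNA 2.7.2 and counted as a duplex from 14 base pairs; stretches shared between families were matched on both strands.

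The members, lists and tests were chosen with earlier results of these data known. Named in the text were any member called, the 10 with the highest mean, both arms of hairpins at a mean of 10 or more, families of 3 or more members, members with the lowest and highest ratio of GLY 2 to the other GLY libraries, and tested members without overlap; the shared stretches were named after they were seen.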

Additional observations from a re-analysis of the deposited data

How the results depend on the processing

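With all libraries, 0 members and 0 families were called under every scaling, added value, filter and limma option tried, and under the replicate block, with 34 to 81 members and 24 to 52 families tested. Leaving out 1 library gave 0 to 20 members called and 0 to 16 families called, and only the fits without GLY 2 called any (20 members and 16 families, or 16 members and 15 families with the filter set on the 5 libraries kept, a choice made after the data were seen; all lower in GLY). The filter of either fit could be passed through CK alone, which favoured this direction. The median difference of the members was -0.85, -0.53 and -0.46 under the 3 other scalings, -0.32 with 5 added, -0.22 with no filter (81 tested), -0.59 with the stricter filter, -0.75 with the replicate block and -2.24 to 0.41 with 1 library left out. Deviations from the group means correlated at -0.39, 0.094 and 0.47 between libraries of the same number, and at -0.48 to 0.51 between those of different numbers. With so few libraries a group, and GLY 2 apart, these values cannot show whether the replicate numbers pair the libraries. The block changed no call.

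Signs of small differences turned. For osa-miR2873a the difference was -0.15 with equal sums. For osa-miR2878-5p it was 0.07 with median-of-ratios scaling, 0.06 per valid read and 0.02 with 5 added, for osa-miR5150-5p it was 0.00 and 0.01 with the first and second of these scalings, and for osa-miR1863a it was 0.11 with 5 added. With 1 library left out the differences ran from -1.63 to 0.57 for osa-miR1862d, -0.90 to 1.27 for osa-miR1876, -1.22 to 0.75 for osa-miR2873a, -0.89 to 1.01 for osa-MIR1873-p5, -0.53 to 0.91 for osa-miR1871, -0.86 to 1.05 for osa-MIR1863a-p5, -1.93 to 0.11 for osa-miR5150-3p_L-1R+1, -1.45 to 0.52 for osa-miR2877, -3.77 to 1.01 for osa-MIR1870-p5, -0.82 to 1.51 for osa-MIR1862d-p5, -3.54 to 0.38 for osa-MIR1871-p5, -0.03 to 1.23 for osa-miR1883a, -1.80 to 0.99 for osa-miR2878-5p, -1.72 to 0.73 for osa-miR5150-5p, -2.24 to 1.31 for osa-miR1863a and -3.29 to 0.82 for osa-MIR1873-p3. None of these was called with all libraries. The cause of the turns between scalings was not tested. With 3 libraries a group and 1 of them apart, the data limit what a difference between the groups can show, and values at 0 in GLY 3 limit the low members most.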
